A study of Mus musculus with 6 samples.

Results

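Genes of ceramide and sphingolipid metabolism were followed in RNA-seq libraries of whole mouse liver. The 30 genes were taken by name, as the enzymes and regulators that make, modify and break down ceramide, and each matched 1 row among the 54600 of the deposited table. Animals of both groups received a high-fat diet (HFD) for 16 weeks. Of the 6 libraries, 3 carry the label wild type (WT) and 3 the label hepatocyte-specific HIF-2α knockout (KO). The Cre driver, the sex and the age of the animals are not stated in the labels used here. HIF-2α is the product of Epas1 and acts as the oxygen-sensitive part of a hypoxia-inducible transcription factor. The comparison addresses whether transcripts of these genes differed with the genotype label in livers exposed to the same diet. The labels do not say that each library came from a separate animal, so the p-values measure the spread between these libraries.

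Ceramide is the centre of sphingolipid metabolism. In the endoplasmic reticulum, serine palmitoyltransferase joins serine to palmitoyl-CoA, and a reductase, a ceramide synthase and a desaturase complete the molecule. Ceramide is then used for sphingomyelin, glucosylceramide or ceramide 1-phosphate, or is cut by ceramidases to sphingosine, from which sphingosine 1-phosphate is made. In liver on a fat-rich diet, ceramide accumulation is known for its link with insulin resistance, and in mouse intestine HIF-2α has been described to raise Neu3, a ganglioside sialidase whose action feeds ceramide formation.

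Values are in TPM, a length-corrected transcript abundance that adds up to one total in each library, so that levels of different genes can be compared within a library but sequencing depth is unknown. Tested genes reached 1 TPM in 3 or more libraries, and they were fitted with limma on log2(TPM + 1), and a Benjamini-Hochberg adjusted p below 0.05 over all 11440 tested genes counted as a call. Fold changes on this scale understate the change of low genes. Hepatocyte markers such as Alb summed to between 55720 and 79070 TPM in every library. Summed TPM of markers of macrophages was 204 to 287 in the WT-labelled libraries and 257 to 273 in the KO-labelled ones. Endothelial markers summed to 92.4 to 101 and 96.8 to 109 TPM, stellate cell markers to 112 to 135 and 134 to 156, and cholangiocyte markers to 24.9 to 35.3 and 34.9 to 56.2. Erythroid markers summed to 409 to 670 and 521 to 1131 TPM, and neutrophil markers to 1.96 to 9.89 and 5.42 to 6.13. Below 1 TPM in all libraries were 5 of 6 lymphocyte markers, the neutrophil marker Ly6g, and the cholangiocyte markers Krt19 and Krt7. The cholangiocyte sum therefore rests on the other markers of that list. In whole liver, fewer cells of a type and less RNA per cell cannot be told apart, and the part of these cell types in the results was not tested. The targeted gene did not check the labels: Epas1 was at 23.8, 26.0 and 21.0 TPM in the WT-labelled libraries and at 26.6, 35.1 and 29.4 TPM in the KO-labelled ones. All libraries labelled KO lay above all labelled WT (log2 difference +0.34, SE 0.15; limma adjusted p = 0.993, unadjusted p = 0.05). Groups did not overlap for 9.08% of all tested genes. The unadjusted limma p was 0.0171 with the replicate number as a block, and 0.103 with median-ratio scaling, where the difference was +0.23. A deletion in hepatocytes leaves the gene intact in other liver cells, and the cause of the higher values was not tested.

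The sphingolipid genes showed no difference between the labels that passed the test. Of the 30 genes, 24 reached the level needed for testing and 0 of those were called, beside 1 call among all tested genes (0.00874%). At an unadjusted limma p below 0.05 there were also 0 of 24, against 3.15% of all tested genes. The smallest p among the 24 was 0.141, for the glucosylceramide synthase gene Ugcg, and every adjusted p was 0.993 or above. The replicate number as a block left 0 of 24 at either threshold, while 6.18% of all tested genes were below 0.05 before adjustment. Log2 differences, given throughout as KO minus WT, ran from -0.23 for Sgms1 to +0.33 for Ugcg. Their median was +0.07 over the 24 genes and +0.09 over all tested genes. After median-ratio scaling, which divides each library by its typical ratio to the others, these medians were -0.02 and -0.01. The sign of the small differences given here therefore depends on the scaling, and 17 of 24 above 0, beside 74.5% of all tested genes, became 8 of 24 beside 46.4%.

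The data bound these differences more tightly for some genes than for others. The 95% limma interval, taken gene by gene with no adjustment, lay within 1.5-fold in either direction for 12 of the 24 genes and within 2-fold for 23. With a pseudocount of 0.1 in place of 1, which compresses low genes less, the counts were 12 and 20. After median-ratio scaling they were 17 and 24. Such counts over all tested genes are not given here, so these do not set the sphingolipid genes apart. Sgpl1 had the interval -0.31 to +0.20, Smpd1 -0.15 to +0.38 and Sphk2 -0.22 to +0.31. Exons of Sphk2 overlap those of more abundant genes, so its interval may not describe Sphk2 transcripts alone. The widest intervals were those of Cers6, from -0.76 to +1.004, and of Smpd3, from -0.81 to +0.97. The typical difference was smaller than the typical spread: the median absolute difference was 0.10 and the median standard deviation between libraries of 1 label was 0.21 on the log2 scale, against 0.13 and 0.21 for all tested genes.

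**Figure D1:**
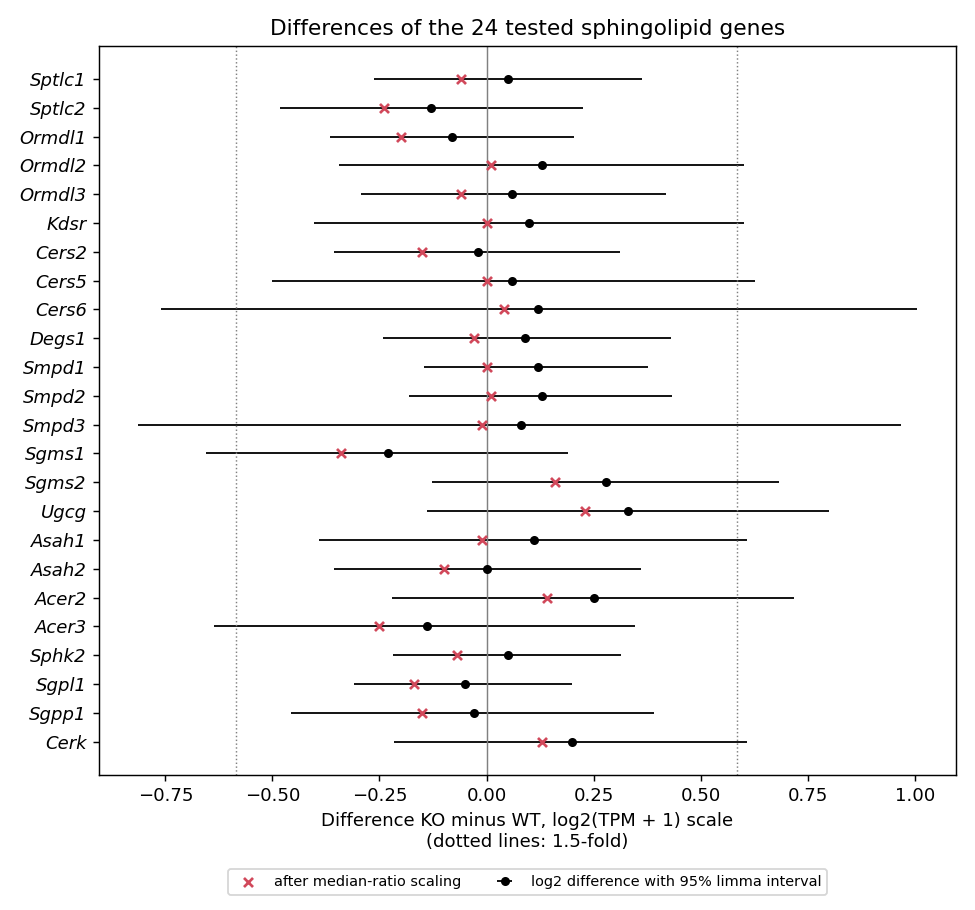
Log2 difference between KO-labelled and WT-labelled libraries for the 24 tested sphingolipid genes, on the log2(TPM + 1) scale, with 95% limma intervals (black) and the difference after median-ratio scaling (red crosses). All 24 intervals include 0; the dotted lines mark 1.5-fold in either direction.

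Mean levels of the tested genes ran from 1.18 to 181 TPM, and the order was led by 1 ceramide synthase gene. Cers2 had a mean of 181 TPM over the 6 libraries and ranked 514 among all tested genes. Its lowest library, at 151 TPM, lay above the highest value of the next gene, Degs1, at 53.4. From Degs1 (mean 45.3 TPM) down to Sgpl1 (18.8) the ranges of neighbouring genes overlapped, so their order is not fixed by these data. A further gap lay between Sgpl1 and Smpd2 (13.9 TPM), and another between Sptlc1 (10.6) and Asah2 (6.58). At the low end of the tested genes were Cerk (1.37 TPM) and Cers5 (1.18).

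**Figure D2:**
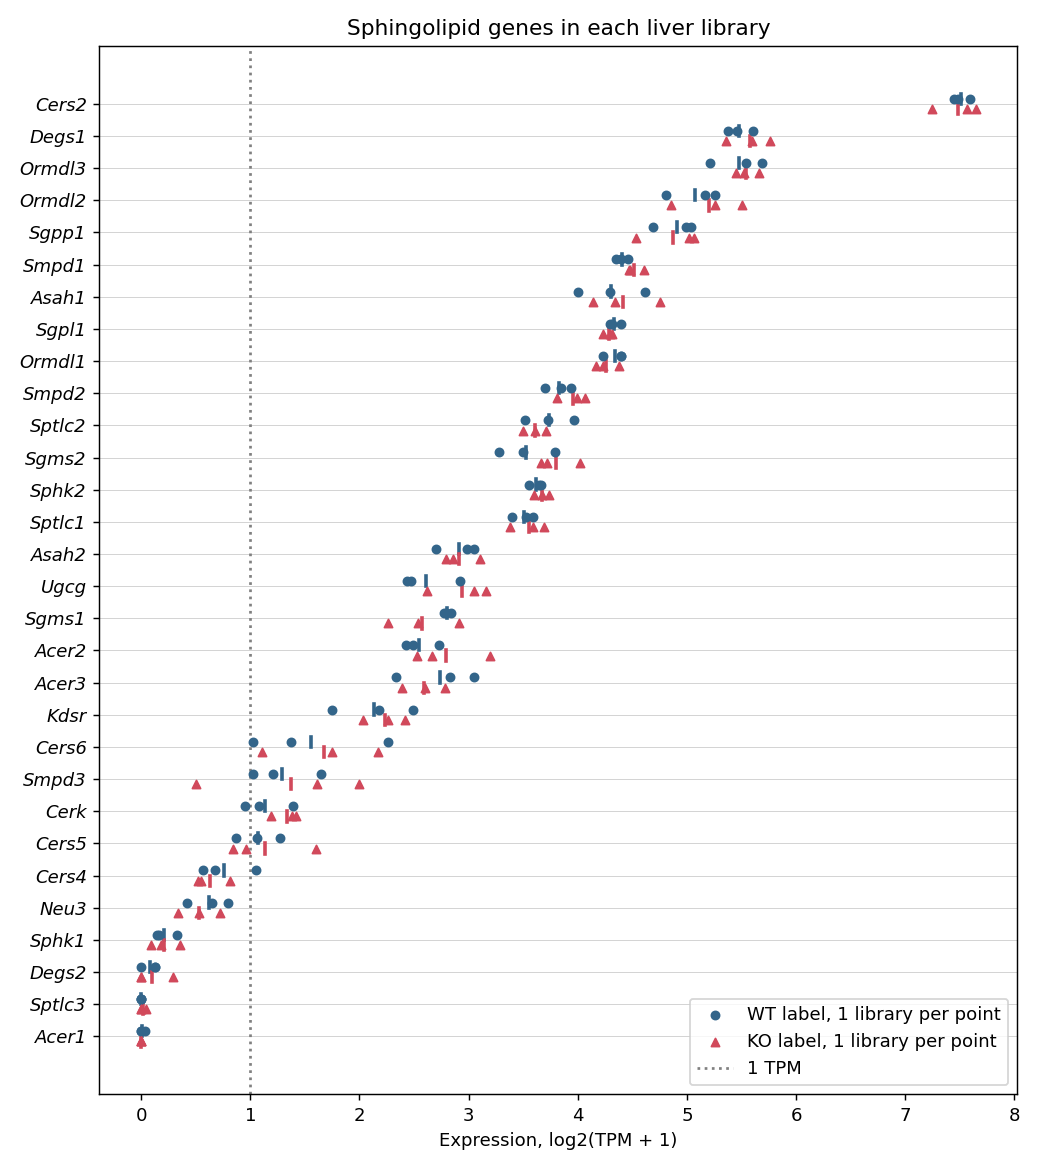
Expression of the 30 sphingolipid genes as log2(TPM + 1), ordered by mean; each point is 1 library (circles WT label, triangles KO label) and short bars are group means. Cers2 stands apart at the top, the 6 untested genes lie at the bottom, and the points of the labels overlap for every tested gene except Smpd1.

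Of the 6 genes below the level needed for testing, 3 were close to 0. Sptlc3, an alternative subunit of serine palmitoyltransferase, was listed at 0 in 5 of 6 libraries and at 0.03 TPM in KO replicate 1. Acer1, an alkaline ceramidase known mainly from skin, was listed at 0 in 5 libraries and at 0.023 TPM in WT replicate 3. Degs2, a desaturase that also hydroxylates, was listed at 0 in 3 libraries and reached 0.224 TPM in KO replicate 2, with exons that overlap the more abundant Evl (mean 2.86 TPM) on the opposite strand. Sphk1, the inducible sphingosine kinase, lay between 0.062 and 0.283 TPM. Cers4 was at 1.07, 0.595 and 0.48 TPM in the WT-labelled libraries and at 0.432, 0.467 and 0.753 in the KO-labelled ones, which overlapped. The remaining untested gene, Neu3, is described at the end.

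Serine palmitoyltransferase, the entry point of the pathway, was carried by the genes of its core subunits Sptlc1 and Sptlc2. Sptlc1 (mm10 chromosome 13, 53332748 to 53377397) was at 10.5, 11.01 and 9.53 TPM in the WT-labelled libraries and at 11.1, 11.9 and 9.40 in the KO-labelled ones. Sptlc2 (chromosome 12, 87305058 to 87388355), which encodes the catalytic partner, was at 14.6, 10.4 and 12.2 TPM and at 12.1, 10.3 and 11.2. Both genes overlapped between the labels. The log2 difference of Sptlc2 was -0.13 (SE 0.15; limma adjusted p = 0.993, unadjusted p = 0.42). With the block and median-ratio scaling together its unadjusted limma p was 0.0494, the 1 value of the 24 genes below 0.05 in that fit, in which 4.51% of all tested genes were below it. The TPM ratio of Sptlc2 to Sptlc1, which does not depend on scaling between libraries, was 1.39, 0.945 and 1.28 in the WT-labelled libraries and 1.10, 0.864 and 1.19 in the KO-labelled ones. The library numbered 2 had the lowest ratio under both labels.

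The ORMDL genes encode small membrane proteins that hold serine palmitoyltransferase in check when ceramide is plentiful. Together they summed to 106, 90.2 and 93.6 TPM in the WT-labelled libraries and to 107, 88.5 and 106 in the KO-labelled ones, which is 3.98 to 5.16 times the sum of Sptlc1 and Sptlc2. Ormdl3 (chromosome 11, 98581256 to 98587368) was the most abundant on average, at 50.5, 45.5 and 36.1 TPM and at 49.5, 42.7 and 44.8. Ormdl2 was at 35.0, 27.0 and 37.3 TPM and at 37.3, 27.9 and 44.4, lowest in the library numbered 2 under both labels. In WT replicate 3, the share of Ormdl2 in the family (39.9%) was slightly above that of Ormdl3 (38.6%), while Ormdl3 led in the other 5 libraries. Ormdl1 was at 20.1, 17.8 and 20.1 TPM and at 19.8, 17.8 and 17.0. None of the 3 was called, and their log2 differences were -0.08 for Ormdl1, +0.13 for Ormdl2 and +0.06 for Ormdl3. Exons of Ormdl2 overlap those of Dnajc14 on the opposite strand (mean 11.8 TPM), and, since no source used here gives the counting mode, reads of such pairs may be mixed.

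Kdsr, the reductase of the next step, was low beside the genes around it, at 3.53, 4.60 and 2.36 TPM in the WT-labelled libraries and at 3.78, 4.35 and 3.09 in the KO-labelled ones. The library numbered 2 was highest and that numbered 3 lowest under both labels. Degs1 (chromosome 1, 182275772 to 182282804) encodes the desaturase that turns dihydroceramide into ceramide. It was at 47.7, 43.0 and 40.4 TPM and at 47.3, 53.4 and 40.1, with a log2 difference of +0.09 (SE 0.14; limma adjusted p = 0.993). Both genes overlapped between the labels.

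Ceramide synthases attach fatty acids of different length, and Cers2, which uses very long acyl chains, made up nearly all of the family's transcripts. Cers2 (chromosome 3, 95314791 to 95323599, plus strand) measured 174, 193 and 178 TPM in the WT-labelled libraries and 189, 199 and 151 in the KO-labelled ones. The label groups overlapped, with KO replicate 2 highest and KO replicate 3 lowest (log2 difference -0.02, SE 0.14, 95% interval -0.36 to +0.31; limma adjusted p = 0.994). Its share of the summed TPM of the 6 ceramide synthase genes lay between 97.1% and 98.7% in all libraries. Cers6 (chromosome 2, 68861441 to 69114282, plus), whose product makes palmitoyl ceramide and has been tied to insulin resistance in obese mice, was at 1.59, 3.81 and 1.04 TPM and at 2.35, 3.51 and 1.16. The values were high in both libraries numbered 2 and low in both numbered 3, and the range of the KO-labelled libraries lay within that of the WT-labelled ones (log2 difference +0.12, SE 0.38; limma adjusted p = 0.993). The ratio of Cers2 to Cers6 varied more within the labels than between them, at 109, 50.6 and 171 and at 80.2, 56.7 and 130. Cers5, a further synthase for palmitoyl ceramide, was at 1.42, 1.09 and 0.829 TPM and at 0.943, 2.04 and 0.787. The remaining synthase genes Cers1 and Cers3 did not exceed 0.048 and 0.017 TPM in any library.

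The promoters of Cers2, the most abundant of the genes, and Cers6, among the most variable, are shown because both hold ACGTG, the core that HIF proteins bind in hypoxia response elements. They are the 250 bases before a RefSeq start of GRCm38.p6, 5′ to 3′ on the gene's plus strand, at chr3:95314940-95315189 for Cers2 and chr2:68861191-68861440 for Cers6. The Cers2 window lies downstream of the GENCODE gene start at 95314791, so it is inside the annotated gene. The Cers6 window ends before its gene start at 68861441. Capitals mark each ACGTG or GCGTG on either strand.
Cers2: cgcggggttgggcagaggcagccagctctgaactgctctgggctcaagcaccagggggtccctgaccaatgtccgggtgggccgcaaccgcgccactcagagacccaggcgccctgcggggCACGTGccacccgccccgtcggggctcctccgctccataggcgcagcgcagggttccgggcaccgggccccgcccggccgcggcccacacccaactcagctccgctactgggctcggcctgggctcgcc
Cers6: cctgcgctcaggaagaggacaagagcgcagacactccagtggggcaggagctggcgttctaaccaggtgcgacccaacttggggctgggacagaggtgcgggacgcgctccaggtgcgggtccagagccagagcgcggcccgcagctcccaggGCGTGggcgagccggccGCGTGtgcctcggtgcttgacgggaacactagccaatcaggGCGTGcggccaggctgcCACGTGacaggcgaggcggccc
In Cers2 the marked site is CACGTG, which reads the same on both strands and holds ACGTG once on each. The marked sites of Cers6 are 3 of GCGTG and 1 of CACGTG, the latter ending close to the start. A second RefSeq start of Cers2 had none of these letters in its window. RefSeq gave 43 such windows for 28 of the 30 genes, and ACGTG on either strand was in 13 of them, or 30.2%, belonging to 10 genes. Among all 32851 promoter windows of that length, 16.6% held it. The bases after the start were found in a GENCODE transcript of the gene for 35 of the 43 windows, the ones printed here included. Of those 35, 9 (25.7%) held ACGTG, and the other 4 windows with it were 3 of Sgms2 and 1 of Degs1. Windows of 1 gene can overlap, as a pair of Sphk1 windows does. For GCGTG the shares among the 43 and among all windows were 48.8% and 28.2%, and for CACGTG, which overlaps ACGTG, 16.3% and 6.02%. The windows of these genes also had a higher GC content, with a median of 61.6% against 52.4%. Whether base composition accounts for the shares was not tested, and a match of letters is not evidence of binding.

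Ceramide is turned into sphingomyelin by the synthases of Sgms1 and Sgms2, into glucosylceramide by Ugcg, and into ceramide 1-phosphate by the kinase of Cerk. Without scaling, these genes held 4 of the 5 smallest unadjusted limma p-values among the 24, all of 0.141 or above, and none was called. This did not hold after median-ratio scaling. Sgms1 then had an unadjusted limma p of 0.0821, but Ugcg (0.289), Sgms2 (0.338) and Cerk (0.436) were higher. Genes outside this branch lay below those 3 values, namely Sgpl1 (0.136), Sptlc2 (0.141) and Ormdl1 (0.141). The unscaled log2 differences of the 4 ceramide-using genes did not share a direction, at -0.23 for Sgms1, +0.28 for Sgms2, +0.33 for Ugcg and +0.20 for Cerk. Ugcg (chromosome 4, 59189257 to 59222833) was at 4.57, 6.55 and 4.42 TPM in the WT-labelled libraries and at 5.14, 7.94 and 7.26 in the KO-labelled ones. WT replicate 2 lay above KO replicate 1, so the labels overlapped (log2 difference +0.33, SE 0.20, 95% interval -0.14 to +0.80; limma adjusted p = 0.993, unadjusted p = 0.141). The KO-labelled library was the higher in all 3 same-numbered pairs, and with the block the unadjusted limma p was 0.0637 and the adjusted p 0.724. After median-ratio scaling the difference was +0.23, with an unadjusted limma p of 0.289, or 0.138 with the block as well. Sgms2 (chromosome 3, 131318985 to 131491411), which encodes the enzyme of the plasma membrane, was at 12.8, 10.3 and 8.71 TPM and at 11.7, 12.1 and 15.2, overlapping (log2 difference +0.28, SE 0.17; limma adjusted p = 0.993). Sgms1 (chromosome 19, 32122727 to 32389714), which encodes the Golgi enzyme, was at 6.16, 5.91 and 5.84 TPM and at 6.53, 4.80 and 3.78. The libraries labelled WT were close to each other there, while those labelled KO spanned values above and below them (log2 difference -0.23, SE 0.18; limma adjusted p = 0.993).

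As a share of sphingomyelin synthase transcripts, Sgms2 took 67.6%, 63.6% and 59.9% in the WT-labelled libraries and 64.1%, 71.7% and 80.1% in the KO-labelled ones. The highest share was in KO replicate 3, which had both the highest Sgms2 and the lowest Sgms1, and KO replicate 1 fell within the range of the libraries labelled WT. The ratio of Sgms2 to Sgms1 was 1.77 ± 0.297 and 2.78 ± 1.14 (SD, n = 3 each), given with no test because the pair was singled out after its values were seen. Cerk was at 1.61, 1.11 and 0.928 TPM and at 1.61, 1.29 and 1.68, and made up 4.64% to 6.44% of the transcripts of the 4 ceramide-using genes.

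**Figure D3:**
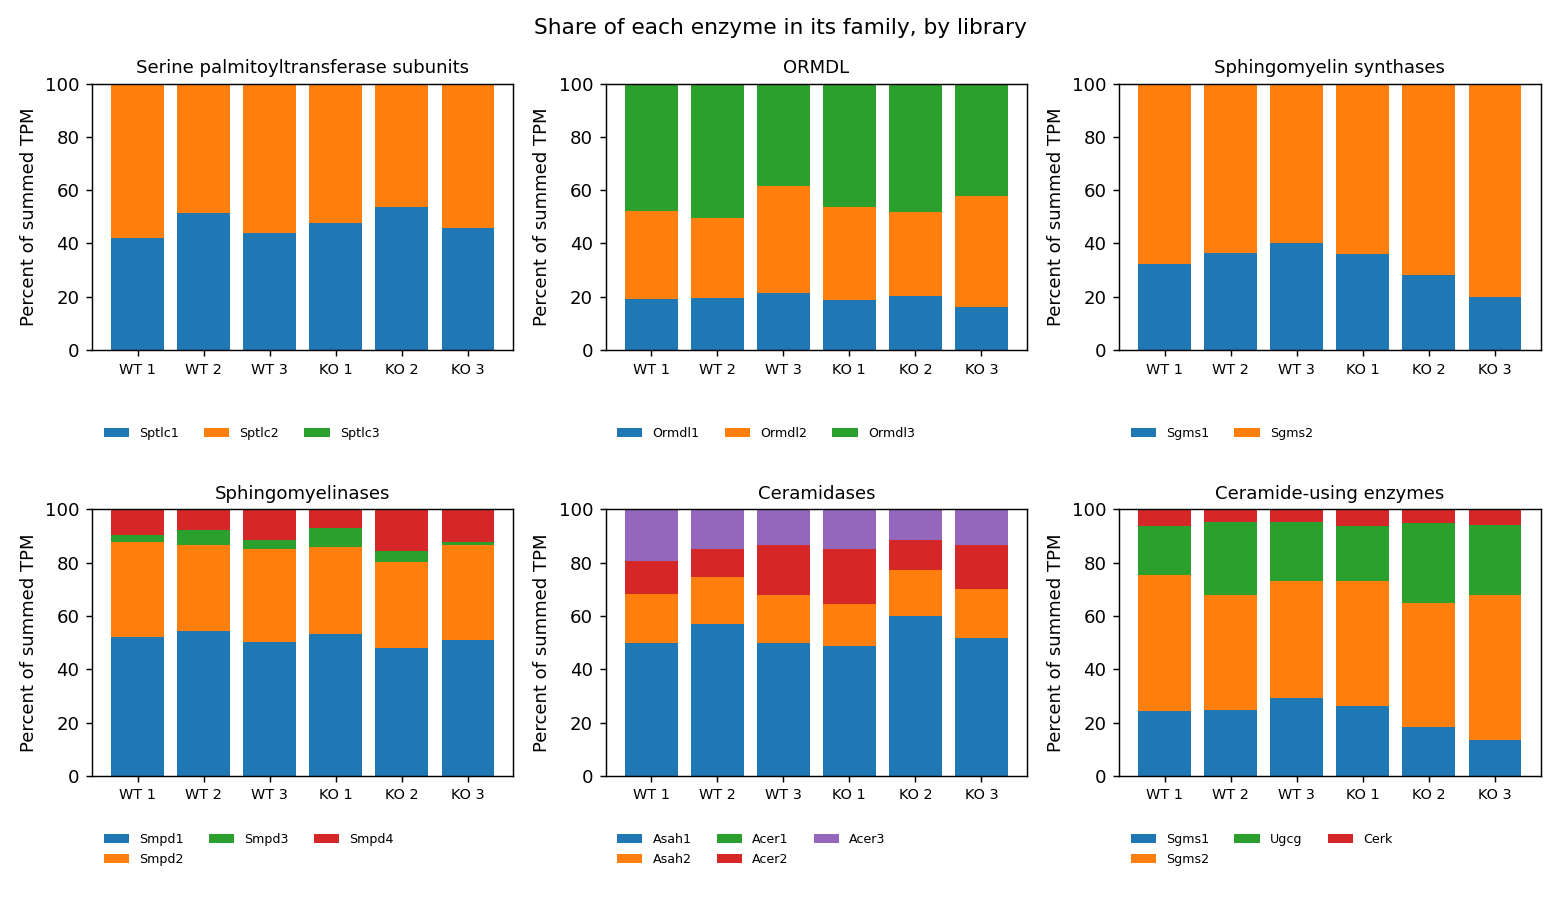
Percent of the summed TPM of each enzyme family taken by each of its genes, in the 3 libraries labelled WT and the 3 labelled KO; each bar is 1 library and sums to 100. The share of Sgms2 in sphingomyelin synthases is largest in KO replicate 3 (80.1%), and Smpd3 varies from 1.01% to 7.47% of sphingomyelinases; Sptlc3 and Acer1 are too low to be visible.

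Sphingomyelinases release ceramide from sphingomyelin. Smpd1 (chromosome 7, 105554360 to 105558389), the acid enzyme of lysosomes, was at 21.0, 20.1 and 19.4 TPM in the WT-labelled libraries and at 21.2, 23.3 and 21.3 in the KO-labelled ones. It was the 1 gene of the 24 whose label groups did not overlap, beside 9.08% of all tested genes. The gap between the highest library labelled WT and the lowest labelled KO was small, the log2 difference was +0.12 (SE 0.11; limma adjusted p = 0.993, unadjusted p = 0.334), and median-ratio scaling brought it to -0.003. The exact two-sided permutation p was 0.10, the smallest that 3 libraries against 3 can give. Smpd2, a neutral enzyme, was at 14.3, 11.97 and 13.4 TPM and at 13.0, 15.8 and 14.9, overlapping. Smpd3 (chromosome 8, 106252548 to 106337988), the neutral enzyme of the Golgi and plasma membrane, was at 1.03, 2.13 and 1.31 TPM and at 2.98, 2.06 and 0.419. Both its highest and its lowest value were in libraries labelled KO, a 7.11-fold range that was the widest of the 24 genes (log2 difference +0.08, SE 0.38; limma adjusted p = 0.993). Its exons overlap those of the more abundant Prmt7 (mean 3.48 TPM) on the opposite strand, so the level and the range of Smpd3 are uncertain.

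Ceramidases cut ceramide to sphingosine and a fatty acid. Asah1 (chromosome 8, 41340197 to 41374773), the lysosomal acid ceramidase, was at 18.6, 23.5 and 15.0 TPM in the WT-labelled libraries and at 19.3, 26.0 and 16.7 in the KO-labelled ones. It was highest in the library numbered 2 and lowest in that numbered 3 under both labels, and the labels overlapped (log2 difference +0.11, SE 0.21; limma adjusted p = 0.993). Its transcripts were 48.7% to 59.9% of those of the 5 ceramidase genes. Asah2, the neutral ceramidase, had the same mean of 6.58 TPM under both labels, with SDs of 0.941 and 0.880 (n = 3 each). Acer2, the alkaline enzyme of the Golgi, was at 4.62, 4.38 and 5.62 TPM and at 8.19, 4.77 and 5.33, high in KO replicate 1 alone. Acer3, an alkaline enzyme acting on unsaturated ceramides, was at 7.28, 6.10 and 4.05 TPM and at 5.90, 5.07 and 4.24, with the libraries numbered 1 highest and those numbered 3 lowest under both labels. The log2 differences were +0.25 for Acer2 and -0.14 for Acer3, neither of them called.

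Sphingosine is phosphorylated by sphingosine kinases to sphingosine 1-phosphate, which the phosphatase of Sgpp1 returns to sphingosine and the lyase of Sgpl1 cleaves for good. Sphk2 made up 97.7% to 99.5% of kinase transcripts, at 11.5, 10.8 and 11.7 TPM in the WT-labelled libraries and at 11.1, 12.3 and 11.7 in the KO-labelled ones. Its exons overlap on the opposite strand with those of Rpl18 (mean 235 TPM) and Dbp (37.8), both more abundant, so the level and the spread of Sphk2 are uncertain. Sgpl1 (chromosome 10, 61098642 to 61147703) was the steadiest of the 24 genes, at 18.7, 20.04 and 18.9 TPM and at 18.9, 18.6 and 17.8, a 1.12-fold range. Sgpp1 (chromosome 12, 75714249 to 75735729) was at 31.9, 30.9 and 24.7 TPM and at 32.5, 31.4 and 22.2, lowest in the library numbered 3 under both labels. The ratio of kinase to lyase and phosphatase transcripts was 0.230, 0.217 and 0.270 and 0.219, 0.252 and 0.294. All of these overlapped between the labels, with limma adjusted p-values of 0.993 or 0.994.

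Libraries of the same number often lay on the same side of the mean. In 10 of the 24 genes, or 41.7%, the 3 numbers stood in the same order under both labels, beside 28.6% of all tested genes. After median-ratio scaling these shares were 29.2% and 25.3%. A library numbered 3 was the lowest of the 6 for 19 of the 24 genes, beside 62.0% of all tested genes, and for 13 beside 37.8% after scaling. WT replicate 3 had the smallest median-ratio factor, 0.873, against 0.980 to 1.09 in the other libraries. The labels do not say what the numbers stand for, and the cause was not tested.

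**Figure D4:**
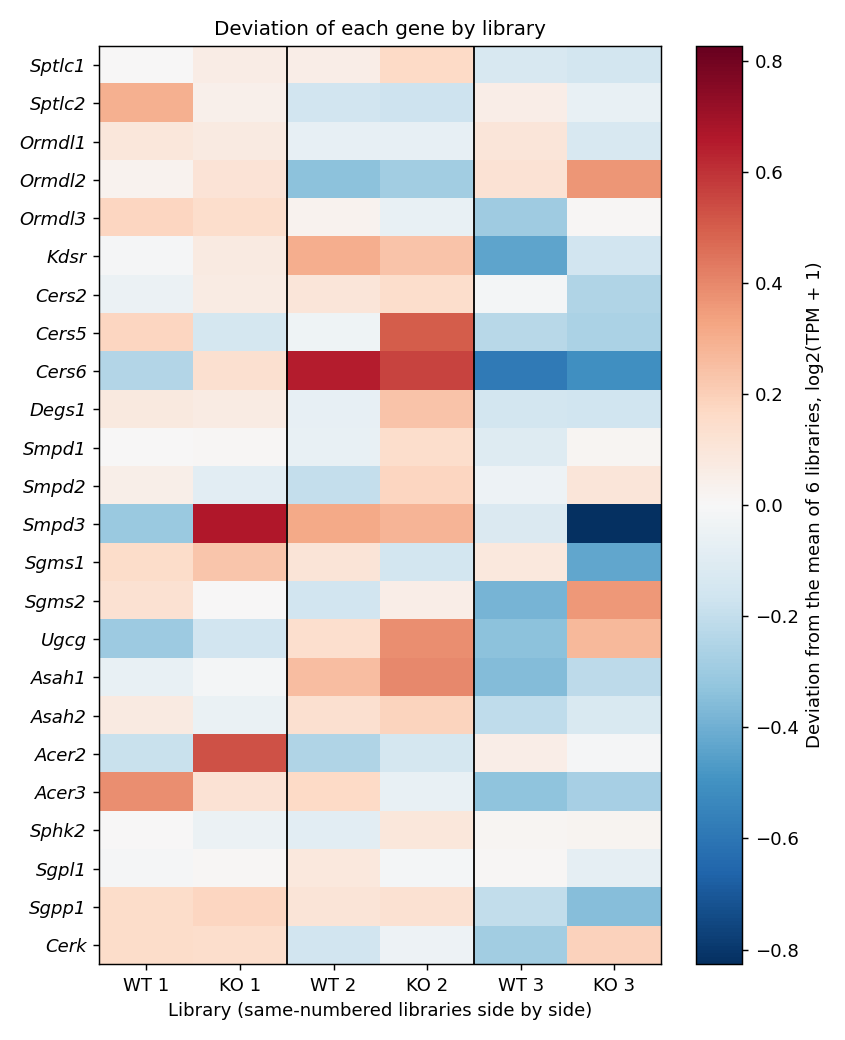
Deviation of each of the 24 tested genes from its mean over the 6 libraries, on the log2(TPM + 1) scale, with same-numbered libraries side by side. Cers6 and Asah1 are above their mean in both libraries numbered 2 and below it in both numbered 3, and Smpd3 is lowest in KO replicate 3.

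Neu3 was below the level needed for testing. It was at 0.567, 0.732 and 0.336 TPM in the WT-labelled libraries and at 0.645, 0.262 and 0.442 in the KO-labelled ones, and the groups overlapped. Means ± SD came to 0.545 ± 0.199 and 0.450 ± 0.192 TPM (n = 3 per label; exact permutation p = 0.60, two-sided). Its promoter is shown because Neu3 has been described to depend on HIF-2α in mouse intestine. The 250 bases before its RefSeq start lie on the minus strand of GRCm38.p6 at chr7:99828418-99828667, written 5′ to 3′ along the gene, with capitals for the single GCGTG and no ACGTG on either strand.
Neu3: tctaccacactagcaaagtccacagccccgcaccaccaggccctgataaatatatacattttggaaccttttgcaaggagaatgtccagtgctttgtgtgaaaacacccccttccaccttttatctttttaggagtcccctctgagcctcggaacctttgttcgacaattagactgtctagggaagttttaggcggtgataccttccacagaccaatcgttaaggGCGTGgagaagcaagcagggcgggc
Among the other sialidase genes, Neu1, which encodes the lysosomal enzyme, was at 11.6 ± 1.21 and 13.9 ± 1.80 TPM (SD, n = 3 each). Neu2, which encodes the cytosolic enzyme, was at 1.95 ± 0.490 and 1.41 ± 0.612 TPM, and Neu4 was listed at 0 in all 6 libraries. Neither of the tested genes, Neu1 and Neu2, was called (limma adjusted p = 0.993 each).

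Other genes of sphingolipid metabolism gave the same picture. A list of 53 further genes covered accessory subunits, glycosphingolipid synthesis and breakdown, transfer and sphingosine 1-phosphate signalling. It also held, among others, the fatty acid elongation genes Elovl1, Hacd3 and Tecr, as well as Fa2h, Adipor1, Adipor2 and Nsmaf. Of these 53 genes, 37 were tested and 0 were called. Their median log2 difference was +0.11, or -0.02 after median-ratio scaling, beside the values over all genes given above. Elovl1 (chromosome 4, 118428093 to 118432953), the elongase that makes very long acyl-CoAs used by the Cers2 product, was the 1 of the 37 with an unadjusted limma p below 0.05. That is 2.7% of the 37, beside 3.15% of all tested genes. Elovl1 was at 22.0, 22.1 and 18.6 TPM in the WT-labelled libraries and at 27.4, 28.7 and 24.3 in the KO-labelled ones. All libraries labelled KO lay above all labelled WT (log2 difference +0.35, SE 0.13, 95% interval +0.04 to +0.65; limma adjusted p = 0.993, unadjusted p = 0.0309). Its exact permutation p was 0.10, the difference after median-ratio scaling was +0.23, and with the block the unadjusted limma p was 0.00821 and the adjusted p 0.724. B4galnt1, a ganglioside synthase gene named after its values were seen, was the other of the 37 without overlap, at 29.2, 30.02 and 28.3 TPM and at 31.2, 34.6 and 31.9 (limma adjusted p = 0.993). Among all tested genes, the groups of 9.08% did not overlap. The most abundant of the 37 were Apom, the carrier of sphingosine 1-phosphate in plasma, at 193 ± 22.1 and 212 ± 52.2 TPM, Psap, the precursor of lysosomal saposins, at 174 ± 29.4 and 189 ± 20.9, and Aldh3a2, which oxidizes the aldehyde left by the lyase, at 186 ± 81.6 and 163 ± 87.6 (SD, n = 3 each). Aldh3a2 was low in both libraries numbered 3, at 92.5 and 80.5 TPM, against 155 to 255 TPM in the other libraries.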

How the data were processed

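Total RNA of mouse liver was sequenced, and the authors deposited 1 table of TPM for 54600 genes and 6 libraries. The tools named in the submitters' processing notes are HISAT2, fastp, featureCounts, limma and DESeq2, on mm10, without versions, roles or order. TPM keep no read totals, so depth is unknown and no counting interval is given. Symbols and coordinates came from GENCODE M21 (mm10) by Ensembl identifier. All 30 genes matched, and exons of 12 overlap another gene. Rows joined to an assembled locus were those of 7 genes: Cers2, Degs1, Ormdl3, Sgms2, Smpd3, Asah2 and Sgpl1. The row of Epas1 was joined as well. Whether such rows hold transcripts of the annotated gene alone was not tested. No count test was run.

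The 11440 genes that reached 1 TPM in 3 or more libraries were fitted on log2(TPM + 1) with limma 3.58.1 (R 4.3.3) and a trended variance, and two-sided p-values were adjusted over all of them. The step was also run on simulated data, with changes planted only in more abundant genes, independent noise and no shift between libraries. That run does not show how well small changes or low genes are detected here. The members and lists were chosen with earlier results of these data known. Values per library are given for genes with an unadjusted p below 0.05, with groups that do not overlap, or most abundant in their family; further genes were named after their values were seen.

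Spearman correlations between libraries were 0.945 to 0.978, and no pair shared more than 1.44% of values above 0. By these values no library was a copy of another, and each counted as 1 replicate. Such a check cannot show whether libraries came from separate animals. Deviations from the group means correlated between same-numbered libraries at 0.16, 0.41 and 0.38, against -0.37 to 0.03 for other pairs. The numbers were treated as a possible pairing, from the data and not the labels, through a replicate block as an alternative. Other alternatives were pseudocounts of 0.1 and 5, no filter or one of 5 TPM, median-ratio scaling, quantile normalization, the block with median-ratio scaling, and leaving out each library.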

Additional observations from a re-analysis of the deposited data

How the results depend on the processing

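No sphingolipid gene and none of the further pathway genes passed the threshold under any alternative run, and the smallest adjusted p among the tested members ran from 0.724 with the replicate block to 0.9999 without KO replicate 2. Over all tested genes the count of 1 call became 0 with a pseudocount of 5, no filter, a filter of 5 TPM, quantile normalization, the replicate block and the replicate block with median-ratio scaling, and 0 to 2 when 1 library was left out. The median log2 difference of the members, 0.070, was -0.018 with median-ratio scaling, quantile normalization and the block with that scaling, and -0.036 to 0.135 when 1 library was left out. The cause was not tested beyond the shift that scaling gives all genes.

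Signs of small differences changed as follows for the tested members and for Apom, Psap and Aldh3a2, and none of them was called. Some further pathway genes not listed here also changed sign with median-ratio scaling, such as Smpdl3a (+0.05 to -0.07) and S1pr1 (+0.06 to -0.06). With median-ratio scaling, with or without the replicate block, Smpd1 was at -0.003, Cers5 at -0.004, Smpd3 at -0.007, Asah1 at -0.010, Apom at -0.016, Degs1 at -0.027, Ormdl3 at -0.058, Sptlc1 at -0.063, Sphk2 at -0.067 and Asah2 at -0.104. Quantile normalization put Ormdl3 at -0.005, Kdsr at -0.008, Cers5 at -0.028, Smpd3 at -0.034, Sphk2 at -0.061, Sptlc1 at -0.062 and Asah2 at -0.118, and a pseudocount of 0.1 put Smpd3 at -0.016. Leaving out 1 library gave -0.346 to 0.011 for Acer3, -0.661 to 0.212 for Aldh3a2, -0.036 to 0.324 for Apom, -0.062 to 0.264 for Asah1, -0.103 to 0.071 for Asah2, -0.101 to 0.098 for Cers2, -0.172 to 0.210 for Cers5, -0.141 to 0.477 for Cers6, -0.001 to 0.200 for Degs1, -0.096 to 0.273 for Kdsr, -0.022 to 0.303 for Ormdl2, -0.070 to 0.166 for Ormdl3, -0.011 to 0.233 for Psap, -0.143 to 0.135 for Sgpp1, -0.234 to 0.510 for Smpd3 and -0.019 to 0.138 for Sptlc1.

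The replicate block changed no call among the members. TPM give no depth, so the precision of low genes such as Neu3, Cers4 and Sphk1 cannot be stated.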
